A study of Mus musculus with 42 samples.

Results

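The genes described here encode the phase II conjugation enzymes: cytosolic glutathione S-transferases (GST) of the alpha, kappa, mu, omega, pi, theta and zeta classes, the microsomal GSTs, the UDP-glucuronosyltransferases of families UGT1 and UGT2, and the sulfotransferases (SULT). Members were all genes whose platform symbol begins with Gsta, Gstk, Gstm, Gsto, Gstp, Gstt, Gstz, Mgst, Ugt1, Ugt2 or Sult, so the choice used names and no measured value. They numbered 59 genes read by 96 probes, out of 19057 named genes and 45281 probes on the array, and each gene was read from its probe with the highest mean scanner signal over the 42 arrays. The members divided into 4 GST alpha, 1 kappa, 7 mu, 2 omega, 3 pi, 4 theta and 1 zeta gene, 3 microsomal GST genes, 16 SULT genes, 8 UGT1 genes and 10 UGT2 genes.

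Conjugation makes lipid-soluble compounds easier to excrete. GSTs join reactive electrophiles to glutathione, UGTs attach glucuronic acid to bilirubin, steroids, phenols and drugs, and SULTs move sulfate from the donor PAPS onto phenols, steroids and bile acids. The liver is the main organ for all of these reactions, and many of the enzymes change in level between fetal and neonatal life.

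RNA from mouse cells was measured on Illumina bead arrays. Embryonic stem (ES) cells and germline cell-derived pluripotent stem cells, which are pluripotent cells obtained from germ cells and came as 2 lots (GPSC-A, or lot A, and GPSC-B, or lot B), were grown as embryoid bodies with a hepatic differentiation cocktail. Each line was sampled at days 0, 2, 7, 14, 21 and 28, with 2 arrays per line and day, and the reference cells were primary hepatocytes from embryos at day E16 and from pups at postnatal day 1 (PN1), with 3 arrays each. Day 0 samples are titled NT, read here as not treated, and the later ones EB with the day. Between day 0 and later days, culture time, embryoid body growth and cocktail changed together and cannot be told apart. What the cocktail contained, the mouse strains and any pooling of animals are not stated in the labels used here. No culture kept without the cocktail to day 2 or later is among these samples, and each lot is 1 cell population. The labels number replicates without saying whether each was its own culture or animal, so the p-values reflect spread between arrays that may be technical.

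All levels below are normalised signals on a log2 scale, where a probe without transcript reads about 4.5 to 5.5. A probe counted as detected on an array when the deposited detection p-value was under 0.01. A change was called when the adjusted p of limma's moderated test over 10831 genes was under 0.05 and the fold was at least 2, and errors given as ± are standard errors of the fitted log2 change. The number of arrays limits the precision, and levels of different probes are not compared with each other. Arrays detected between 8427 and 15123 of the probes, with 8427 to 11539 on the hepatocyte arrays and 9873 to 15123 on the culture arrays, and replicates of a group correlated at r = 0.950 to 0.982. The lowest detected signal was 5.43 to 6.75 on culture arrays, 6.18 to 6.74 on E16 arrays and 6.98 to 7.33 on PN1 arrays. Detection thus asked for a higher signal in PN1, and a probe not detected there is not shown to be absent.

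The labelled cell types were set against marker lists. Of 10 hepatocyte markers, 1 or 2 were detected on all arrays of each line at day 0, 6 in each line at day 28, 8 in E16 hepatocytes and 6 in PN1 hepatocytes. Albumin was not detected in any day 28 group or in PN1 hepatocytes, and Ttr and Serpina1a were also not detected in PN1. The summed normalised signal of this list ran from 359 to 737 at day 0, from 8345 to 28652 at day 28, from 199482 to 227197 in E16 and from 68988 to 83005 in PN1. Erythroid markers summed to 75949 to 82123 in E16 and 86125 to 88497 in PN1, against 107 to 132 at day 28, so the hepatocyte samples also held red cell transcripts. Fibroblast and stellate markers summed to 6814 to 15349 at day 28 and to 844 to 1841 at day 0, against 400 to 747 in the hepatocytes. Epidermal markers summed to 995 to 7863 at day 28 and 127 to 178 at day 0, against 112 to 161 in the hepatocytes. Cholangiocyte markers summed to 3162 to 5328 at day 28 and 410 to 982 at day 0, and macrophage markers to 245 to 6820 and 210 to 271. Endothelial, visceral endoderm and intestine markers reached at most 471, 362 and 130 at day 28, against 939, 996 and 168 at day 0. Pluripotent markers summed to 79151 to 114078 at day 0 and 275 to 3732 at day 28. Their sums were 185 to 193 in E16 and 194 to 263 in PN1. In such bulk samples fewer cells of a type and less RNA per cell cannot be told apart.

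Detection differed between the families, most clearly for UGT2. Signals passed the detection filter, at least 2 arrays, for 31 of the 59 members, while 27 members were detected on 0 arrays and Ugt2a2 on 1 array, of GPSC-A at day 14. Of all 19057 named genes 10831 passed, so the members as a whole passed about as often as other genes. All 7 members detected on every one of the 42 arrays were GSTs: Gsta4, Gstk1, Gsto1, Gstp1, Gstz1, Mgst1 and Mgst3. The share of all genes detected on every array was not counted. The filter of 2 arrays was passed by 1 of 10 UGT2 genes, 4 of 8 UGT1 genes and 7 of 16 SULT genes. Among GSTs 2 of 4 alpha, 5 of 7 mu, 2 of 4 theta and all kappa, omega, pi, zeta and microsomal genes passed. The UGT1 and SULT shares lay near that of all genes, and that of UGT2 lay well below it. The members that did not pass were Gsta1, Gsta2, Gstm3, Gstm7, Gstt3, Gstt4, Sult1b1, Sult1c1, Sult1c2, Sult1e1, Sult2a1, Sult2a6, Sult2a8, Sult3a1, Sult3a2, Ugt1a1, Ugt1a2, Ugt1a5, Ugt1a9, Ugt2a1, Ugt2a2, Ugt2a3, Ugt2b1, Ugt2b34, Ugt2b35, Ugt2b37, Ugt2b38 and Ugt2b5. Among them are Ugt1a1, the bilirubin-conjugating enzyme, and Sult1e1, the estrogen sulfotransferase, and for these genes the arrays give no level in any group.

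The number of members detected on all arrays of a group dipped in mid culture and rose again. In ES cells it was 20 at day 0, 14 at day 2, 12 at day 7, 13 at day 14 and 19 at days 21 and 28. In GPSC-A it went from 17 at days 0 and 2 to 14 at days 7 and 14 and to 16 at days 21 and 28, and in GPSC-B from 16 at day 0 to 12 at day 14 and back to 16. E16 hepatocytes had 19 and PN1 hepatocytes 17. Arrays also differed in all probes detected. ES arrays detected 15123 and 11179 at day 0, 13062 and 9873 at day 2 and 13426 and 11058 at day 7. GPSC-A arrays detected 12869 and 10792 at day 0 and 13756 and 13576 at day 14, GPSC-B arrays 13430 and 12904 and then 14803 and 12259. E16 arrays detected 9882 to 11539 and PN1 arrays 8427 to 9287. The part of array sensitivity in the member counts was not tested. The numbers at the start and at the end hide a change of genes: members such as Gstp2, Gstp3, Sult4a1 and Sult6b1 lost signal while Sult1a1 and Ugt1 genes gained it, as the heat map of group means shows.

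**Figure D1:**
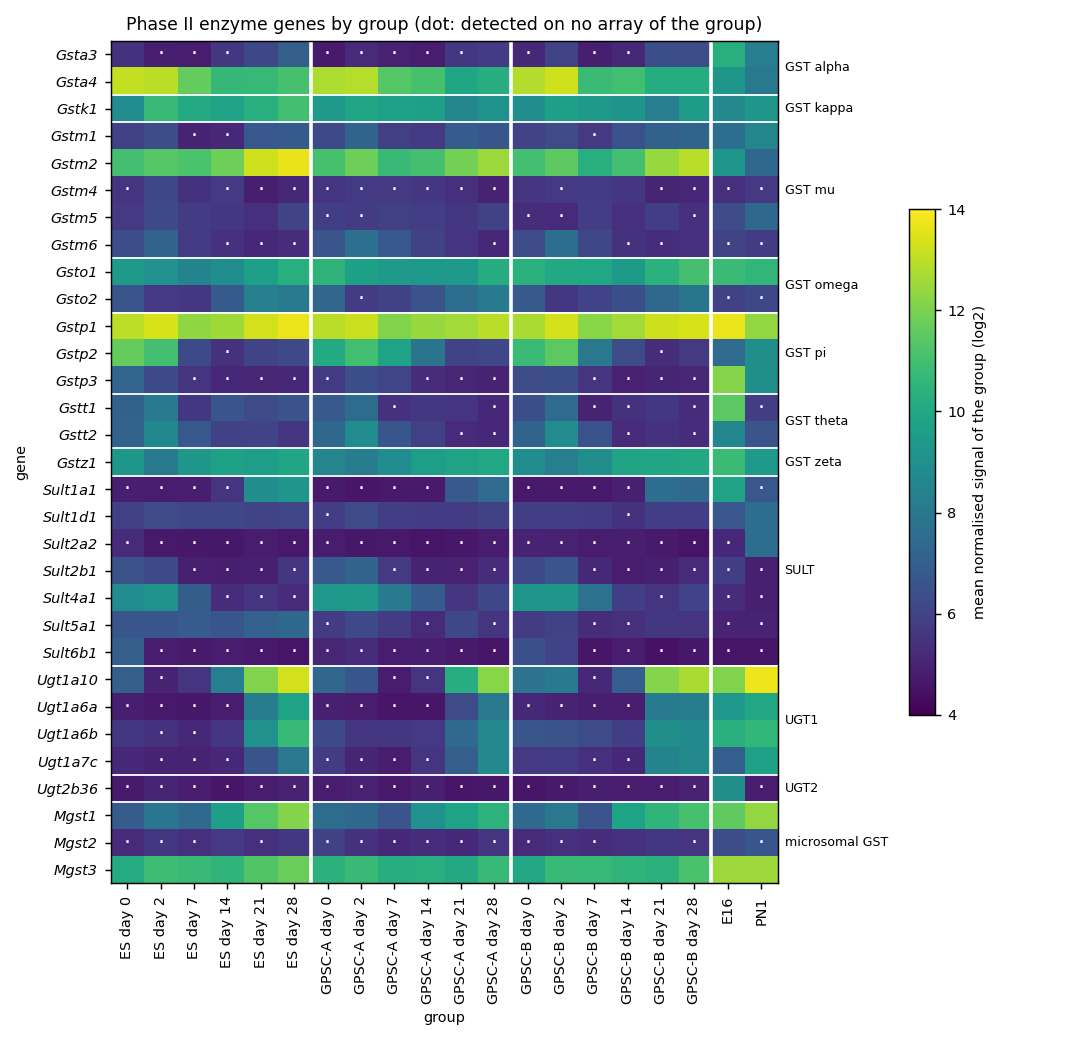
Mean normalised signal (log2, colour) of the 31 tested phase II genes, in rows by enzyme class, in the 20 groups, in columns, with a white dot where the gene was detected on no array of the group. The Ugt1 rows brighten at days 21 and 28 in all 3 lines, Ugt2b36 is bright in E16 hepatocytes alone, and Sult2a2 stands out in PN1 hepatocytes alone.

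Day 28 was compared with day 0 within each line. In ES cells 11 of the 31 tested members were called higher and 7 lower, where 17.4% and 16.7% of all tested genes were called, 34.1% in all. In GPSC-A 9 were higher and 7 lower, against 15.4% and 13.6% of all genes, 29% in all. GPSC-B had 11 higher and 7 lower, against 16.9% and 15.3%, 32.2% in all. The median log2 change of the tested members was 0.57, -0.01 and 0.36 in these lines, beside 0.0, 0.02 and 0.06 for all tested genes. A member could pass the filter through the group where it was high, so these shares describe the 31 genes and not the families. The same holds for the other comparisons below. With array medians aligned in place of quantiles, the split in GPSC-A was 9 higher and 4 lower.

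Across the 3 lines 8 members were called higher in each: Gsta3, Gstm2, Mgst1, Sult1a1, Ugt1a10, Ugt1a6a, Ugt1a6b and Ugt1a7c. Called lower in each were 4: Gsta4, Gstp2, Gstt2 and Sult4a1. In total 12 members were called higher and 9 lower in at least 1 line. The day 28 calls for Gstm2, Mgst1, Sult1a1, the 4 Ugt1 genes, Gsta4, Gstp2 and Sult4a1 held in each line under each alternative processing of the same probe and without any single array, whereas the calls for Gsta3 and Gstt2 did not.

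**Figure D2:**
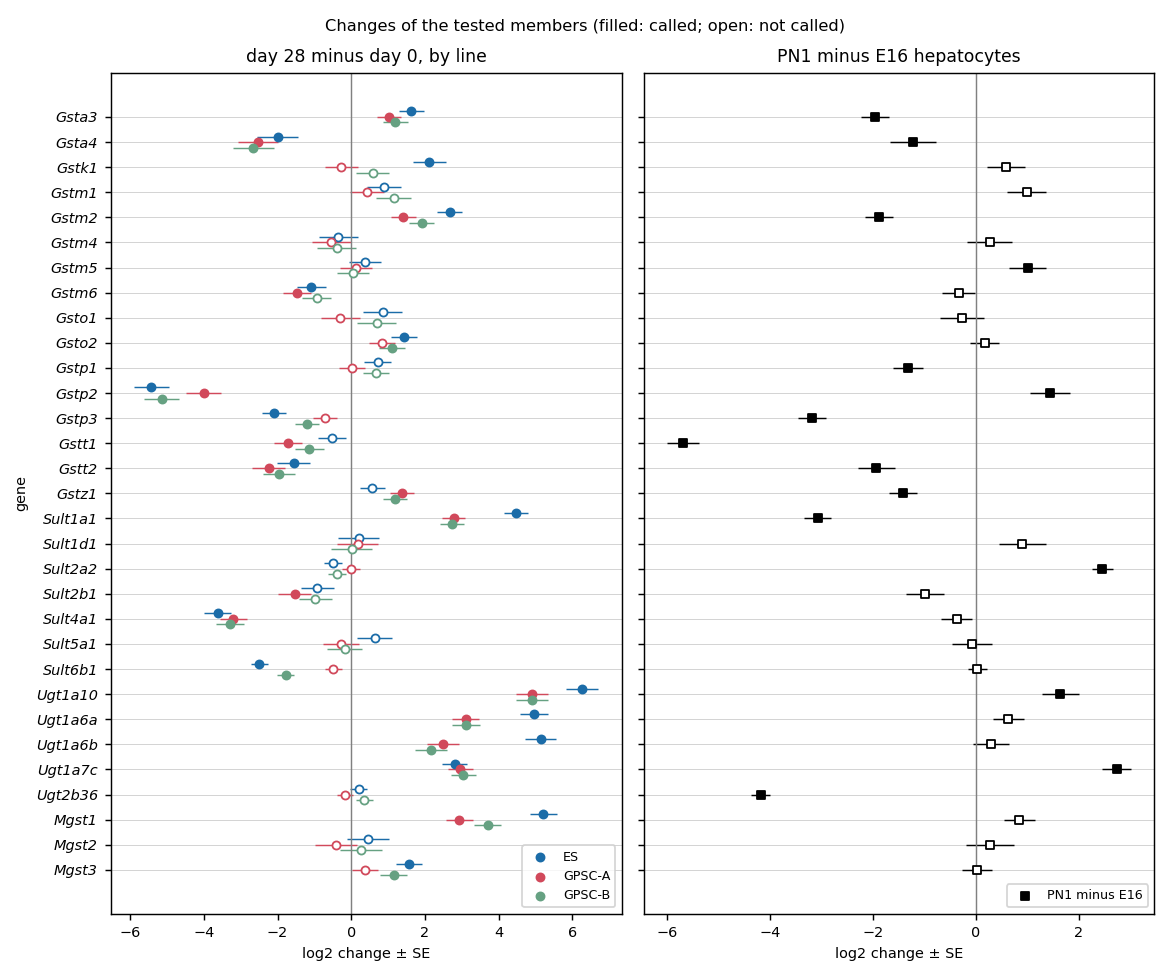
Log2 change with its standard error for each of the 31 tested members (rows), at left day 28 minus day 0 in the 3 lines and at right PN1 minus E16 hepatocytes, with filled symbols for called changes and open ones for the rest. The 4 Ugt1 genes lie to the right of 0 in all lines, and Gstt1, Ugt2b36, Gstp3 and Sult1a1 lie furthest to the left in the hepatocyte comparison.

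The UGT1 genes gave the largest rise among the tested members, that of Ugt1a10 in ES cells. The locus makes its enzymes from alternative first exons joined to shared later exons, so probes placed in the shared part cannot tell them apart, and the 4 tested probes correlated with each other at r = 0.859 to 0.980 over the 42 arrays. All 4 rose from day 0 to day 28 in every line, and all 4 were called higher over the mean of the lines at day 21 and at no earlier day.

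Ugt1a10, whose human counterpart glucuronidates phenols in the gut, read 7.02 and 7.05 at day 0 and 13.46 and 13.15 at day 28 on the ES arrays. In GPSC-A the day 0 arrays read 7.70 and 6.92 and the day 28 arrays 12.31 and 12.10, and in GPSC-B they read 7.36 and 8.23 and then 13.10 and 12.32. Day 28 lay above day 0 on every array, by 6.27 ± 0.44 in ES (adjusted p = 4.8e-12, limma). The B lot gained 4.91 and the A lot 4.90, which are 30.2-fold and 29.8-fold against 77.2-fold in ES. Before that rise the gene dipped: over the 6 arrays of the 3 lines its lowest, median and highest levels were 6.92, 7.20 and 8.23 at day 0, 4.80, 6.68 and 8.22 at day 2 and 4.73, 4.95 and 6.03 at day 7. The change at day 7 was -2.24 ± 0.25 (adjusted p = 4.4e-08, limma), though -0.89 without background correction, where it was not called. Levels were 5.41, 6.97 and 9.34 at day 14, where ES replicate 2 stood highest, and 10.02, 11.97 and 12.38 at day 21.

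Ugt1a6a, a phenol-conjugating enzyme, was not detected on any culture array up to day 14, with levels from 4.48 to 5.43. The day 0 arrays read 4.82 and 4.84 in ES, 5.09 and 4.66 in lot A and 4.78 and 5.43 in lot B. At day 21 it was detected on all 6 arrays, from 6.26 to 8.49 with a median of 8.0. The day 28 arrays read 10.06 and 9.51 in ES, 7.84 and 8.13 in lot A and 8.90 and 7.54 in lot B, so ES lay above both GPSC lots. Against the detection limit the rise was at least 15.2-fold in ES, 3.63-fold in lot A and 5.48-fold in lot B, with adjusted p from 1.8e-11 to 1.7e-07 (limma). A second probe for this gene, detected on 4 arrays and correlated with the chosen one at r = 0.355, was called higher in both GPSC lots, at 1.97 and 1.21 on the log2 scale, but read -0.077 in ES, so the rise in ES is shown by 1 of the 2 probes.

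Ugt1a6b is a close relative of Ugt1a6a, and their probes correlated at r = 0.980. Its day 0 arrays read 5.70 and 5.56 in ES, 6.16 and 6.28 in lot A and 6.48 and 6.80 in lot B. Its day 28 arrays read 10.74 and 10.79, 8.57 and 8.86, and 9.44 and 8.16. In between, the 6 arrays had lowest, median and highest levels of 4.88, 5.96 and 6.65 at day 2, 4.94, 5.65 and 6.70 at day 7, 5.52, 5.67 and 5.96 at day 14 and 7.30, 8.82 and 9.26 at day 21. The log2 changes to day 28 were 5.14 ± 0.43, 2.49 ± 0.43 and 2.16 ± 0.43, so the ES lead at day 28 came with the lowest start.

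Ugt1a7c differed from the other 3 in that ES was not the highest line at day 28. Its arrays read 7.81 and 8.08 in ES, 8.73 and 8.73 in lot A and 9.18 and 8.22 in lot B, from 5.53 and 4.74, 5.56 and 5.98, and 5.29 and 6.03 at day 0. The rise was 2.81 ± 0.34 in ES and 3.04 ± 0.34 in GPSC-B, and at least 6.07-fold in GPSC-A, where the gene was not detected at day 0. From day 2 to day 14 its 18 culture arrays stayed between 4.74 and 5.97, and day 21 spanned 6.57 to 8.95.

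In hepatocytes the chosen probes of the 4 tested UGT1 genes lay above day 0 with no overlap. Ugt1a10 read 12.08, 11.86 and 12.38 in E16 and 13.62, 13.73 and 13.89 in PN1, a rise of 1.64 ± 0.36 (adjusted p = 0.00055, limma). Ugt1a7c read 6.66, 7.07 and 7.23 in E16, detected on 2 of these arrays, and 9.53, 9.77 and 9.89 in PN1, a rise of 2.74 ± 0.28. Ugt1a6a read 9.61, 8.60 and 9.83 in E16 and 9.71, 9.80 and 10.43 in PN1, and Ugt1a6b read 10.61, 9.69 and 10.71 and then 10.35, 10.50 and 11.03. The stages overlapped for both of these genes, and neither was called between stages. The second Ugt1a6a probe averaged 5.08 in E16 and 4.68 in PN1, beside 4.81 to 4.90 at day 0. That probe thus did not repeat the hepatocyte level.

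Ugt2b36 was the only UGT2 member to pass the filter of 2 arrays. This family conjugates steroids, bile acids and drugs in adult liver. Ugt2b36 read 9.03, 8.75 and 9.06 in E16 hepatocytes and 4.65, 4.71 and 4.94 in PN1 hepatocytes, where it was not detected. It was detected on 0 of the 36 culture arrays, whose levels ran from 4.50 to 5.29. Day 0 read 4.80 and 4.65 in ES, 4.79 and 4.82 in lot A and 4.56 and 4.55 in lot B, and day 28 read 4.67 and 5.18, 4.55 and 4.72, and 4.80 and 5.03. The E16 level was at least 3.46-fold above PN1 (adjusted p = 9.3e-17, limma), at least 8.17-fold above day 0 and at least 8.08-fold above day 28. Ugt2b36 passed the filter through the 3 E16 arrays alone, so its high level there was a condition of its being tested and the p-value adds no separate support. A second probe, detected on 3 arrays, gave the same 3 calls.

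**Figure D3:**
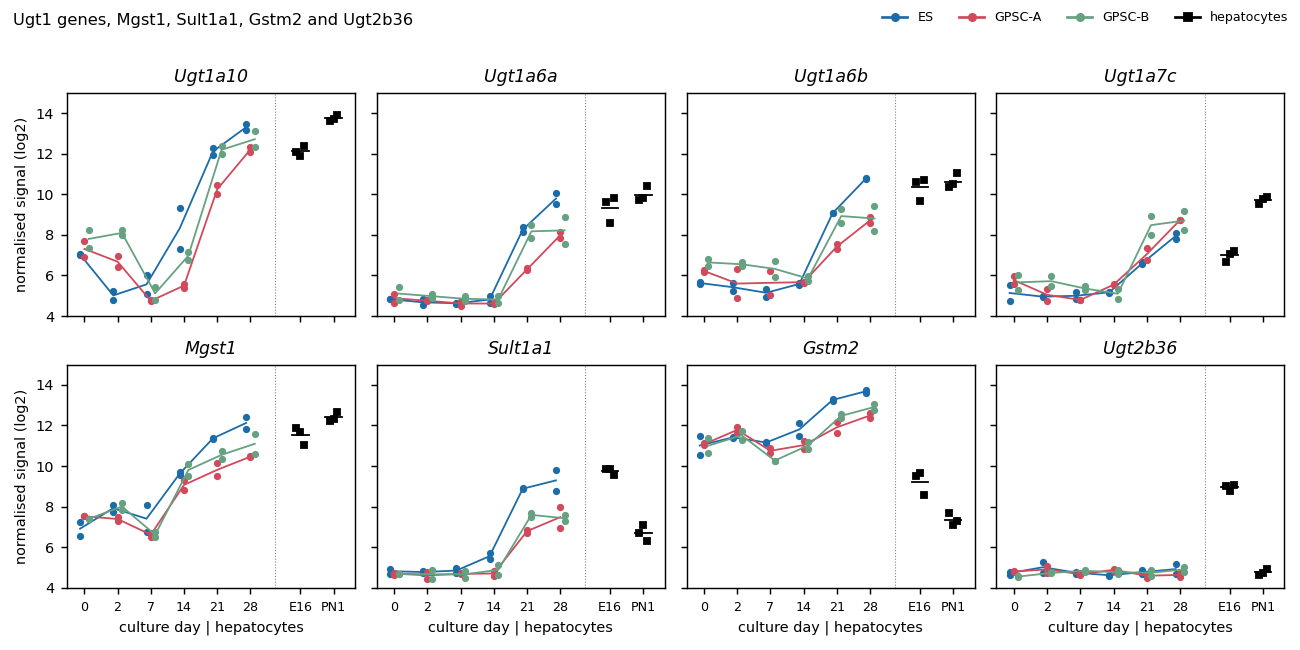
Normalised signal (log2) on every array for the 4 Ugt1 genes, Mgst1, Sult1a1, Gstm2 and Ugt2b36, with coloured points for the 2 arrays of each line and day, coloured lines through their means, and black squares with a mean bar for the 3 arrays of E16 and of PN1 hepatocytes. Ugt1a6a and Sult1a1 stay undetected to day 14 and are up at day 21, Ugt1a10 dips at day 7 before its rise, Mgst1 is already up at day 14, and Gstm2 ends above both hepatocyte groups.

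Among SULT genes 1 rose in culture in every line and 1 fell in every line. Sult1a1, the phenol sulfotransferase of liver, was not detected on any culture array to day 14, with levels between 4.45 and 5.70. The day 0 arrays read 4.70 and 4.94 in ES, 4.66 and 4.75 in lot A and 4.70 and 4.69 in lot B. At day 21 it was detected on all 6 arrays, from 6.73 to 8.90 with a median of 7.60. Its day 28 arrays read 9.83 and 8.76 in ES, 6.97 and 8.0 in lot A and 7.57 and 7.29 in lot B, so ES again lay above both lots. The rise was at least 10.8-fold, 2.57-fold and 3.17-fold, with adjusted p from 6.3e-12 to 8.1e-08 (limma). E16 hepatocytes read 9.88, 9.87 and 9.56, overlapping ES replicate 1 at day 28, and PN1 hepatocytes 6.68, 7.10 and 6.31 with no detection, at least 6.13-fold lower. The lowest detected signal on the PN1 arrays was 6.98 to 7.33, so these values do not show that Sult1a1 was absent in PN1.

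Sult4a1, a brain-enriched member whose substrate is not established, went the other way. Its day 0 arrays read 8.63 and 9.0 in ES, 8.83 and 9.81 in lot A and 9.06 and 9.50 in lot B. Over the 6 arrays the lowest, median and highest levels were 8.95, 9.30 and 9.58 at day 2, 6.93, 7.59 and 8.55 at day 7, 5.09, 5.84 and 7.08 at day 14 and 5.11, 5.52 and 6.0 at day 21. At day 28 the arrays read 5.61 and 4.78 in ES, 6.33 and 5.92 in lot A and 5.46 and 6.52 in lot B. The ES day 28 arrays gave no detection, so the fall there was at least 7.18-fold, and the log2 changes in GPSC-A and then GPSC-B were -3.20 ± 0.38 and -3.29 ± 0.38. E16 hepatocytes read 5.42, 5.01 and 5.33 and PN1 hepatocytes 4.64, 5.03 and 4.97, all without detection.

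Sult6b1, a less studied sulfotransferase, did not read alike in the lines at day 0, a difference that was not tested. It read 6.89 and 7.20 in ES and 6.63 and 6.25 in GPSC-B, but 5.45 and 4.72 in GPSC-A, where it was not detected. By day 2 the ES arrays read 4.97 and 4.54, GPSC-A 5.24 and 5.29 and GPSC-B 5.86 and 6.15, so signal lasted longest in GPSC-B. From day 7 to day 28 all 24 arrays lay between 4.42 and 5.02 without detection. Day 28 read 4.61 and 4.48 in ES, 4.58 and 4.62 in lot A and 4.76 and 4.55 in lot B, beside 4.51, 4.71 and 4.44 in E16 and 4.54, 4.50 and 4.73 in PN1. The fall to day 28 was called in ES, at least 2.10-fold, and in GPSC-B, at least 1.38-fold, where it was -0.66 and not called without background correction, and the difference in GPSC-A, -0.49 ± 0.23, was not called. A second probe, detected on 2 arrays, repeated the ES call and none of the other 6.

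Sult2a2, of the hydroxysteroid family that sulfates bile acids and steroids, was the PN1 gene of the set. It read 7.98, 7.54 and 7.37 there, 4.85, 5.40 and 5.26 in E16, and at most 5.32 in culture, with detection on the 3 PN1 arrays and no other. PN1 was at least 2.11-fold above E16 (adjusted p = 5.7e-11, limma), a call lost without background correction, where the difference was 0.99. Sult2a2 passed the filter through the PN1 arrays alone, so its high level there was a condition of its being tested. Sult2b1, a cholesterol sulfotransferase, was detected on 5 of 6 arrays at day 0 and on none from day 7 on, and its fall to day 28 was called in GPSC-A, at least 1.91-fold. Its second probe gave none of its 4 calls. Sult5a1 was the single member called between lines over all 6 days: it was detected on 12 of 12 ES arrays, 3 of 12 GPSC-A arrays and 4 of 12 GPSC-B arrays, with log2 differences of -1.13 ± 0.19 and -1.31 ± 0.19, where 2.19% and 1.8% of all genes were called lower, 2.11% and 2.03% higher, and 4.3% and 3.83% in all. Both calls were lost without background correction. Sult1d1 was called only between day 28 and PN1.

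GST alpha held a fall and a called rise near the detection limit. Gsta4, which detoxifies the lipid peroxidation product 4-hydroxynonenal, was detected on every array. At day 0 it read 13.34 and 12.84 in ES, 12.99 and 12.52 in lot A and 13.53 and 12.19 in lot B. Its lowest, median and highest levels over 6 arrays were 12.73, 12.95 and 13.59 at day 2, 10.38, 11.32 and 11.91 at day 7, 10.20, 10.86 and 11.69 at day 14 and 9.06, 10.54 and 11.0 at day 21. At day 28 it read 11.24 and 10.93, 10.90 and 9.53, and 10.28 and 10.14, with log2 changes of -2.0 ± 0.55, -2.54 ± 0.55 and -2.65 ± 0.55. Hepatocytes were lower on average, the highest E16 array overlapping the lowest of day 28, with 9.82, 9.32 and 8.69 in E16 and 8.03, 8.14 and 8.0 in PN1. The stage difference of -1.22 ± 0.45, with adjusted p = 0.035 in limma, lost its call without background correction, with medians aligned, in the authors' value table and with no detection filter, and when either E16 replicate 1 or 2 or any PN1 array was left out.

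Gsta3, a liver GST that in mice conjugates aflatoxin epoxide, was low in culture and high in hepatocytes. At day 28 it read 7.13 and 6.95 in ES, 5.15 and 6.32 in lot A and 6.27 and 6.46 in lot B, from 4.62 to 5.96 at day 0. The ES rise of 1.63 ± 0.33 was called but was 0.61, not called, without background correction. Both GPSC lots were also called, but their day 0 arrays gave no detection: GPSC-B was at least 1.52-fold higher, and in GPSC-A, with 1 of 2 arrays detected at day 28, no fold above the detection limit is shown. The GPSC-A difference was 0.44, without a call, when day 28 replicate 2 was left out. E16 read 10.60, 10.35 and 9.81 and PN1 7.98, 8.77 and 8.11, so hepatocytes lay above every culture array, and PN1 was 3.90-fold below E16. Gsta1 and Gsta2, liver and intestine alpha enzymes, were not detected on any array.

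GST mu was led by Gstm2, a cytosolic enzyme of broad tissue range. It read 10.52 and 11.50 in ES, 11.12 and 11.05 in lot A and 11.37 and 10.64 in lot B at day 0, and 13.76 and 13.61, 12.60 and 12.39, and 13.08 and 12.75 at day 28. In between, levels ran from 11.31 to 11.92 at day 2, 10.27 to 11.21 at day 7, 10.85 to 12.14 at day 14 and 11.64 to 13.30 at day 21. The rises of 2.67 ± 0.33, 1.41 ± 0.33 and 1.91 ± 0.33 took the cultures away from the hepatocytes, which read 9.49, 9.64 and 8.58 in E16 and 7.70, 7.08 and 7.29 in PN1. Its 2 further probes gave the same call in all 8 comparisons where it was called. Gstm1, the major mu enzyme of adult liver, was 1.52 ± 0.33 higher in E16 than at day 0, and its rise of 1.15 in GPSC-B was called only with the replicate number as a block. Gstm6 rose by 1.04 ± 0.22 at day 2 and was lower at day 28 by at least 1.29-fold in ES and 1.71-fold in GPSC-A, in neither of which it was then detected. Each of its other 2 probes repeated 1 of its 4 calls. Gstm5 was called 1.01 higher in PN1 than in E16, or 0.58 without E16 replicate 1, and Gstm4 in no comparison.

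GST pi showed 3 neighbouring genes with 3 patterns. The class is encoded in mice by Gstp1, Gstp2 and Gstp3, and Gstp1 and Gstp2 are near-identical paralogs whose probes may share signal, which was not tested. Their upstream windows are shown because the 3 genes lie side by side on chromosome 19 and moved apart. Each is 250 bases before the RefSeq start (GRCm38.p6), 5′ to 3′ on the gene's strand, with capitals on TGAGTCA, the AP-1 site searched after the windows were read, and on GCGTG, the core of the xenobiotic response element, both strands searched.
Gstp1, chr19:4037913-4038162, minus strand: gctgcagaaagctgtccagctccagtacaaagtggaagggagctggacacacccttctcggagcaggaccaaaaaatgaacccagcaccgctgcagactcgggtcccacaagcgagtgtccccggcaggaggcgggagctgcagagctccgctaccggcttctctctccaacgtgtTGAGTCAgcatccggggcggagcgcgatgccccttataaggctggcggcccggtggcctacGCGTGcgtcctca
Gstp2, chr19:4042222-4042471, minus strand: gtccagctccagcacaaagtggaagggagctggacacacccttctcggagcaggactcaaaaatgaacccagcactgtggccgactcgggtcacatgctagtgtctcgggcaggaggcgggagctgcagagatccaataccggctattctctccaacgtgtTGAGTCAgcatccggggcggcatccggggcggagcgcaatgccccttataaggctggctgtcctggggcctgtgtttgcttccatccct
Gstp3, chr19:4059448-4059697, minus strand: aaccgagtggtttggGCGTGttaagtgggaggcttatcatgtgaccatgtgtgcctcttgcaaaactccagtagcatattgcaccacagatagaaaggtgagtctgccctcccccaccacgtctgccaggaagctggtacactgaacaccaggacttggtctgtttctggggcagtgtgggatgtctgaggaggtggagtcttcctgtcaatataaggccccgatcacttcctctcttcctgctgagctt
In a global alignment the windows of Gstp1 and Gstp2 were 78.5% identical, and Gstp3 was 50.7% and 51.9% identical to them. TGAGTCA stood at 74 to 68 bases before the start of Gstp1 and at 89 to 83 before that of Gstp2, and is not in the Gstp3 window. It is in 4.46% of all 32851 RefSeq promoter windows and in 8 of 65 windows of member genes. GCGTG stood at 13 to 9 bases before the start of Gstp1 and at 235 to 231 before that of Gstp3, and is in 28.2% of all windows.

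Gstp1, the abundant pi enzyme, stayed between 11.68 and 13.91 on all culture arrays and was called in no culture comparison. E16 read 13.95, 13.92 and 13.23 and PN1 12.49, 12.31 and 12.36, a change of -1.31 ± 0.29 without overlap. Gstp2 was at 11.44 and 11.84 in ES, 10.18 and 10.04 in lot A and 11.49 and 10.14 in lot B at day 0, and between 10.87 and 11.80 at day 2. At day 7 the lines stood apart, with 6.15 and 6.34 in ES, 7.79 and 8.23 in GPSC-B and 10.04 and 9.60 in GPSC-A, and at day 14 with 5.51 and 5.33, 6.66 and 6.02, and 8.37 and 7.29. The order of the lines was the same on both days with no overlap, though the difference between lines at these days was not tested. Pluripotent markers summed to 2725 to 4159 in ES, 8914 to 9635 in GPSC-B and 20305 to 31009 in GPSC-A at day 7. At day 14 the sums were 360 to 1240, 2139 to 4456 and 8913 to 17564, in the same order of lines. The part of these markers' cells in the Gstp2 levels was not tested. At day 21 all 6 arrays were between 5.29 and 6.29, and at day 28 they read 5.78 and 6.64, 6.90 and 5.32, and 5.81 and 5.52. The log2 changes to day 28 were -5.42 ± 0.47, -4.0 ± 0.47 and -5.15 ± 0.47. E16 hepatocytes read 8.08, 7.86 and 6.56 and PN1 9.01, 9.02 and 8.82, a rise of 1.45 ± 0.39 that came to 0.98, with no call, without E16 replicate 3.

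Gstp3, the least studied pi gene, was highest in the hepatocyte samples and was also detected on some culture arrays up to day 7. E16 read 12.52, 12.30 and 11.69 and PN1 8.97, 9.23 and 8.77, a change of -3.18 ± 0.27 (adjusted p = 1.2e-10, limma). Day 0 arrays read 7.31 and 7.21 in ES, 5.19 and 6.19 in lot A and 6.78 and 5.80 in lot B, day 2 arrays 6.07 to 6.70 and day 7 arrays 5.39 to 6.13. From day 14 on it was not detected, with 4.76 to 5.33 at day 14, 4.86 to 5.23 at day 21, and 5.03 and 5.30, 5.09 and 4.89, and 5.36 and 4.81 at day 28. Day 28 was at least 75.4-fold below E16 and at least 8.32-fold below PN1. Within the pi class PN1 thus lay below E16 for Gstp1 and Gstp3 and above it for Gstp2.

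**Figure D4:**
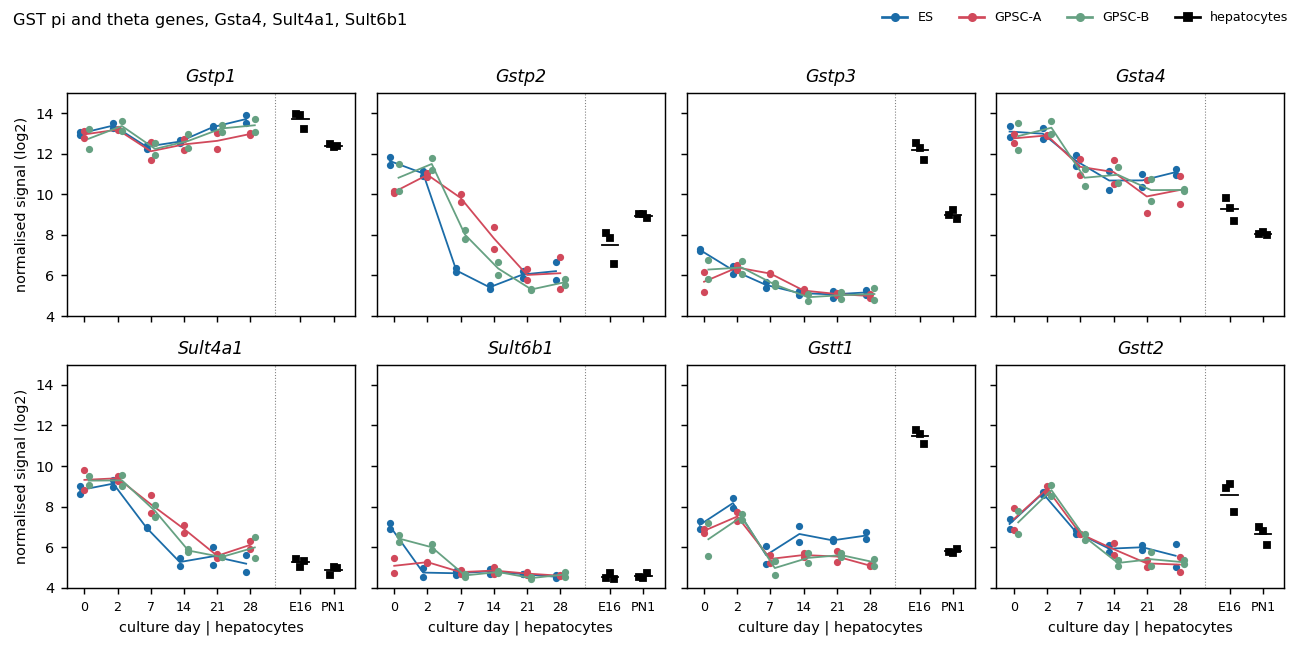
Normalised signal (log2) on every array for the 3 GST pi genes, the 2 tested GST theta genes, Gsta4, Sult4a1 and Sult6b1, with coloured points for the 2 arrays of each line and day, lines through their means, and black squares with a mean bar for the hepatocyte arrays. At day 7 Gstp2 is lowest in ES and highest in GPSC-A, and Gstt1 is high on the 3 E16 arrays alone.

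GST theta enzymes act on halogenated alkanes and other small substrates. Gstt1 read 11.80, 11.60 and 11.09 in E16 hepatocytes and 5.79, 5.73 and 5.91 in PN1 hepatocytes, where it was not detected, so PN1 was at least 20.3-fold lower (adjusted p = 2.8e-14, limma). In culture it read 6.90 and 7.31 in ES, 6.90 and 6.72 in lot A and 7.22 and 5.57 in lot B at day 0, lay between 7.30 and 8.42 at day 2, which was not called, and was between 4.62 and 6.04 at day 7, 5.24 and 7.04 at day 14 and 5.26 and 6.39 at day 21. At day 28 it read 6.74 and 6.41 in ES, 5.08 and 5.11 in lot A and 5.43 and 5.09 in lot B, and both GPSC lots were called lower than day 0, by at least 1.94-fold and 1.34-fold. The GPSC-B change of -1.14 was -0.31 without day 0 replicate 1.

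Gstt2 rose at day 2 and fell later. Its lowest, median and highest levels over 6 arrays were 6.65, 7.15 and 7.93 at day 0, 8.55, 8.74 and 9.08 at day 2 and 6.36, 6.66 and 6.86 at day 7, and by day 28 they were 4.78, 5.26 and 6.14. The rise at day 2 was 1.53 ± 0.25 (adjusted p = 6.4e-05, limma), with no overlap, and was 0.96, not called, without background correction. E16 read 8.91, 9.09 and 7.76 and PN1 7.02, 6.81 and 6.13. A second probe, detected on 15 arrays, did not follow the hepatocyte values: PN1 against E16 was 0.11 on it, where the chosen probe gave -1.94, and E16 against day 0 was -1.26, where the chosen probe gave 1.33.

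The remaining soluble GSTs were detected widely. Gstz1, maleylacetoacetate isomerase of tyrosine breakdown, rose by 1.39 ± 0.33 in lot A and 1.18 ± 0.33 in lot B and was highest in E16, with 11.0, 10.80 and 10.65, against 9.38, 9.57 and 9.26 in PN1. The GPSC-B rise was 0.78, without a call, when day 0 replicate 1 was left out. Gstk1, the mitochondrial and peroxisomal GST, rose in ES by 2.12 ± 0.44, from 8.15 and 9.53 to 10.83 and 11.10. In GPSC-A its day 28 arrays read 9.54 and 8.77 and in GPSC-B 9.47 and 9.50, and neither change was called. Gsto2, a dehydroascorbate reductase, fell by 1.24 ± 0.20 at day 2 and rose by 1.43 ± 0.35 in ES and 1.10 ± 0.35 in GPSC-B by day 28, and was not detected in hepatocytes. A second Gsto2 probe repeated 3 of its 6 calls. Gsto1, its abundant relative, lay between 8.47 and 11.41 on all arrays and was called in no comparison.

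Microsomal GSTs are membrane enzymes. Mgst1, which conjugates and reduces lipid hydroperoxides in the endoplasmic reticulum and mitochondria of liver, was the first of the members higher in all 3 lines at day 28 to be called over the mean of the lines, at day 14. Day 0 arrays read 6.58 and 7.26 in ES, 7.52 and 7.54 in lot A and 7.40 and 7.40 in lot B, and the lowest, median and highest levels were 7.28, 7.80 and 8.18 at day 2 and 6.51, 6.72 and 8.09 at day 7. At day 14 they were 8.84, 9.52 and 10.13 and at day 21 9.50, 10.55 and 11.38, both above every array of days 0 to 7. Day 28 read 12.40 and 11.85 in ES, 10.45 and 10.48 in lot A and 11.59 and 10.61 in lot B. The rises of 5.21 ± 0.37, 2.94 ± 0.37 and 3.70 ± 0.37 brought the cultures near E16, at 11.88, 11.70 and 11.06, while PN1 read 12.23, 12.32 and 12.64. At day 14 Mgst1 was the single member called higher over the 3 lines, by 2.22 ± 0.21 (adjusted p = 1.1e-09, limma). Mgst3, a glutathione peroxidase of membranes, rose by 1.57 ± 0.36 in ES and 1.15 ± 0.36 in GPSC-B and was higher in hepatocytes, from 12.07 to 12.77. The GPSC-B rise was 0.70, without a call, when day 0 replicate 2 was left out. Mgst2 was detected on few arrays and was called only against PN1.

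Mgst1 and Gsta3 were the members called higher at day 28 with an upstream window that held TGACNNNGC, the core of the antioxidant response element, through which GST genes are known to be induced. Mgst1 has 2 RefSeq starts, and the window of the other start holds no match. The 250 bases before a RefSeq start (GRCm38.p6) of each gene are shown with the match in capitals, which for Mgst1 is read on the opposite strand. For Mgst1 the start shown was chosen because its window held the match.
Mgst1, chr6:138140277-138140526, plus strand: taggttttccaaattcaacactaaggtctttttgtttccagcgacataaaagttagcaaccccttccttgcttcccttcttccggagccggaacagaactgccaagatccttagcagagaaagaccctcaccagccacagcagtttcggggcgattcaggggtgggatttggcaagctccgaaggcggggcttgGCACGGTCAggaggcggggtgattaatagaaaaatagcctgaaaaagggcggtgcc
Gsta3, chr1:21240335-21240584, plus strand: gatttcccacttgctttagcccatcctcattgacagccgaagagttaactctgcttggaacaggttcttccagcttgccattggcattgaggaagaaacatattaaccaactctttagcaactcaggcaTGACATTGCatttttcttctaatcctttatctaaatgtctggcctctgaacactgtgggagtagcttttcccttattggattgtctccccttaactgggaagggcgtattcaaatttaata
The match lay 56 to 48 bases before the Mgst1 start shown and 121 to 113 before that of Gsta3. It was in 4 of 65 windows of 53 member genes, the others being Gstm5 and Gstm7, and in 10.2% of all windows. The HNF1 consensus and CAAAGTCCA, an HNF4 consensus, were in 0 of the 65 windows and in 0.00913% and 0.384% of all, and TATAAA was in 11 of 65 and in 12.4% of all. A match is a string of letters and does not show binding.

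By day, over the mean of the 3 lines, calls among members came in stages. At day 2 there were 3 higher (Gstk1, Gstm6 and Gstt2) and 1 lower (Gsto2), where 1.49% and 3.95% of all genes were called, 5.44% in all. At day 7 there were 0 higher and 8 lower (Gsta4, Gsto2, Gstp2, Gstt1, Sult2b1, Sult4a1, Sult6b1 and Ugt1a10), where 6.68% and 6.67% of all genes were called, 13.4% in all. At day 14 there were 1 higher and 7 lower, against 12.7% and 10.9%, 23.5% in all. At day 21 there were 7 higher and 8 lower, against 16.1% and 14.7%, 30.9% in all. The 7 higher at day 21 were Gstm2, Mgst1, Sult1a1 and the 4 Ugt1 genes, each also called higher at day 28 in every line. None of the 4 calls at day 2 held under every alternative. These day comparisons share the day 0 arrays.

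Between lines, fewer members were called over the whole course than in the change to day 28. Over the 6 days, 1 of 31 members was called between GPSC-A and ES and 1 between GPSC-B and ES, Sult5a1 in both. Of all genes 4.3% and 3.83% were called, and these comparisons share the ES arrays. The change from day 0 to day 28 was called different from that of ES for 6 members in GPSC-A, 1 higher and 5 lower, where 1.62% and 2.1% of all genes were called, 3.72% in all. In GPSC-B it was called for 2, both lower, where 0.656% of all genes were called higher and 1.05% lower, 1.71% in all. Sult1a1 and Ugt1a6b were called in both lots, Mgst1, Ugt1a6a, Gstk1 and Sult6b1 in GPSC-A. On the chosen probes all but Sult6b1 rose more in ES, with differences of -2.64 ± 0.60 for Ugt1a6b and -2.27 ± 0.52 for Mgst1 in GPSC-A. The second Ugt1a6a probe gave 2.04 in GPSC-A, the opposite direction. None of the 8 calls held under every alternative. Macrophage markers summed to 6466 to 6820 in ES at day 28 against 245 to 1564 in the GPSC lots, and fibroblast markers to 13705 to 15349 against 6814 to 11159. Hepatocyte markers summed to 18066 to 28652 in ES, 14989 to 17692 in lot A and 8345 to 12737 in lot B, and the part of these cell types in the result was not tested.

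E16 hepatocytes differed from undifferentiated cells in 20 of the 31 members, 14 higher and 6 lower, where 17.7% and 21.6% of all tested genes were called, 39.4% in all. The largest rises were Gstp3 by 5.75 ± 0.23, Gsta3 by 5.15 ± 0.24, Sult1a1, Gstt1, Ugt1a10, Ugt1a6a, Mgst1, Ugt2b36 and Ugt1a6b, each above 4 on the log2 scale. Of these Sult1a1, Ugt1a6a and Ugt2b36 were not detected at day 0 and were at least 14.5-fold, 10.8-fold and 8.17-fold higher. The second Ugt1a6a probe averaged 5.08 in E16 and 4.81 to 4.90 at day 0, and so did not repeat the rise. The 6 lower were Gsta4, Gstm2, Gstp2, Sult4a1, Sult5a1 and Sult6b1. With array medians aligned the split was 10 higher and 8 lower, and the median of all genes moved to -0.67.

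PN1 was compared with E16 to follow hepatocytes across birth. Of the 31 members 5 were higher in PN1 and 10 lower, where 10.3% and 13.6% of all genes were called, 23.9% in all. The 5 higher were Gstm5, Gstp2, Sult2a2, Ugt1a10 and Ugt1a7c. The 10 lower were Gsta3, Gsta4, Gstm2, Gstp1, Gstp3, Gstt1, Gstt2, Gstz1, Sult1a1 and Ugt2b36, of which Gstt1, Sult1a1 and Ugt2b36 were not detected in PN1. Calls for Gsta4, Gstm5, Gstp2 and Sult2a2 were lost in at least 1 alternative on the same probe, and the other 11 held in all of these. The second Gstt2 probe averaged 4.58 in E16 and 4.68 in PN1 and so did not repeat the fall. Hepatocyte markers also fell, from a summed signal of 199482 to 227197 to one of 68988 to 83005, cholangiocyte markers from 4173 to 5245 to 115 to 223 with all 4 undetected, and macrophage markers went from 8894 to 13401 up to 14341 to 17417. Their part in these results was not tested.

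Day 28 cultures were set against each hepatocyte stage as the mean of the 3 lines. Against E16, 6 members were higher and 8 lower, where 19.7% and 15.4% of all genes were called, 35.1% in all. The higher were Gsta4, Gstk1, Gstm2, Gsto2, Sult5a1 and Ugt1a7c, led by Gstm2 with 3.79 ± 0.24. The lower were Gsta3, Gstp2, Gstp3, Gstt1, Gstt2, Mgst3, Sult1a1 and Ugt2b36, led by Gstp3, Gstt1 at -5.85 ± 0.27, and Ugt2b36. With array medians aligned the split was 7 higher and 5 lower. Ugt1a10, Ugt1a6a, Ugt1a6b and Mgst1 were not called, with differences of 0.64, -0.68, -0.90 and -0.32, though Ugt1a10 was called at 1.47 with array medians aligned. Against PN1, 5 members were higher (Gsta4, Gstm2, Gsto2, Sult1a1 and Sult5a1) and 15 lower, where 25.2% and 19.4% of all genes were called, 44.6% in all. The lower were Gsta3, Gstm1, Gstm5, Gstp2, Gstp3, Gstt2, Mgst1, Mgst2, Mgst3, Sult1d1, Sult2a2 and the 4 Ugt1 genes, of which Ugt1a6a, Ugt1a6b and Ugt1a7c turned to 0.05, 0.15 and 0.10 with array medians aligned. This second split turned to 9 higher and 3 lower with array medians aligned, where the median of all genes stood at 0.88, and 5 calls held under every alternative: Gsta4 and Gstm2 higher, Gstp2, Gstp3 and Sult2a2 lower. Both comparisons share the day 28 arrays.

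Genes that supply or complement conjugation were taken from a list of 74 names, 67 of them on the array and 52 past the filter. ES cells at day 28 had 13 of these called higher and 6 lower than at day 0, GPSC-B 14 and 8, and GPSC-A 12 and 8. The shares of all tested genes called higher and lower were 17.4% and 16.7% in ES, 16.9% and 15.3% in GPSC-B, and 15.4% and 13.6% in GPSC-A. Both PAPS synthases, which make the sulfate donor, rose in every line: Papss1 by 2.11, 1.94 and 1.53 and Papss2 by 2.94, 2.60 and 2.33 on the log2 scale. Bpnt1, which breaks down the PAPS product, fell in every line by 1.81, 1.44 and 1.72. Ugp2, which makes UDP-glucose on the way to the glucuronate donor, rose by 1.26, 1.42 and 1.14. It was the 1 gene called in each line among the 3 tested for UDP-glucuronate supply. Of the same list Ugdh was detected on 1 array and Slc35d1 on none, and neither was tested. Ephx1, microsomal epoxide hydrolase, rose by 3.12, 2.47 and 2.26, and Nqo1, a quinone reductase, fell by 1.40, 1.75 and 2.29. Gpx3, plasma glutathione peroxidase, the methyltransferase genes Nnmt and Inmt, the arylsulfatase gene Arsb and Nr1h4 were also called higher in every line, and Gnmt, glycine N-methyltransferase, lower. In GPSC-A Nr1h4 was not detected at day 0 and averaged 5.65 at day 28, detected on 1 of 2 arrays. No fold above the detection limit is shown for Nr1h4 in that line. Calls in 1 or 2 lines were higher for Akr1b8, Arsa, Bach1, Bpnt2, Cebpa, Ggt5, Keap1 and Rxra and lower for Abcc4, As3mt, Cbr1, Cbr3, Gclm, Gpx2, Nr1i3 and Slc7a11.

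Between hepatocyte stages 11 of these 52 genes were higher in PN1 and 9 lower, where 10.3% and 13.6% of all genes were called. Nqo1 was higher in PN1 by 3.03 ± 0.29, the cystine transporter gene Slc7a11 by 3.93 ± 0.55 and Gclm, the modifier subunit of glutathione synthesis, by 1.36 ± 0.28. Cbr3, a carbonyl reductase, was at least 10.3-fold higher and Akr1b8, an aldo-keto reductase, at least 6.90-fold higher. The canalicular exporter of conjugates Abcc2 was at least 1.97-fold lower in PN1, the drug exporter Abcb1b at least 8.73-fold lower, and the bile acid receptor gene Nr1h4 at least 4.82-fold lower. The other genes called higher in PN1 were Abcc1, Abcc3, Abcc5, Arsb, Cebpa and Ggt5, and the others called lower were As3mt, Bpnt2, Ephx1, Gnmt, Gss and Ppara. Impad1 of the list is named Bpnt2 in RefSeq.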

How the data were processed

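The authors deposited linear scanner intensities that the file headers call non-normalized, and a detection p-value for each probe and array. The submitters' processing notes name GenomeStudio and no version. The authors' own value table of processed intensities, normalised by a method the labels do not state, served as an alternative. Per the labels' protocols RNA was taken with a miRNeasy kit and labelled as biotinylated cRNA.

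Signals were corrected, quantile normalised and set to log2 with neqc of limma 3.58.1 (R 4.3.3), offset 16. Genes kept were detected (p under 0.01) on at least 2 arrays, 10831 in all. lmFit and eBayes fitted 20 group means with 22 residual degrees of freedom, and p-values were adjusted by Benjamini-Hochberg over all genes in each of 15 comparisons. A call needed adjusted p under 0.05 and 2-fold. Where 1 side was detected on 0 arrays, the fold is a lower bound, the bright group's mean over, per array, the higher of the probe's own signal and the lowest signal detected. The code was tested on simulated data. Symbols come from the platform annotation, where 34885 probes have 1 symbol, 18 several and 10378 none, and all 59 members matched RefSeq.

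For the 14 members with the largest called change in the 3 day 28 comparisons or between hepatocyte stages, each array is given in the text for days 0 and 28 and for hepatocytes. Their other days are given by range, for undetected probes over several days together, and the plots by array show every value. Members, lists and tests were chosen with earlier results of these data known. Same-numbered culture samples deviated together (r = 0.245 to 0.644, all 45 pairs over 0.1), those of hepatocytes did not (r = 0.007 to 0.079), and a fit with the number as a block within lines was an alternative. Other alternatives were no background correction, median scaling, the value table, other filters, own groups only, other probes and leaving out each array.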

Additional observations from a re-analysis of the deposited data

Results flagged for a closer look

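Differences between lines in the change from day 0 to day 28, tested as an interaction in the limma model, were called for 6 members in GPSC-A against ES and 2 in GPSC-B against ES. Against GPSC-A the log2 difference of changes was -2.39 for Gstk1, -2.27 for Mgst1, -1.69 for Sult1a1, -1.85 for Ugt1a6a and -2.64 for Ugt1a6b, all with the larger change in ES on the chosen probe, and 2.01 for Sult6b1, which fell in ES and was not detected in GPSC-A at day 0. For Ugt1a6a the second probe gave 2.04, the opposite direction. Against GPSC-B it was -1.74 for Sult1a1 and -2.97 for Ugt1a6b. The 2 contrasts share the ES arrays. Gstk1 rests in part on ES day 0, whose arrays read 8.15 and 9.53: without replicate 1 the difference was -1.70 and no longer called. With groups of 2 or 3 arrays no single array could be tested as an outlier.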

How the results depend on the processing

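Calls among members kept their direction when single arrays were left out, and the counts then ran from 17 to 17 for ES, 14 to 16 for GPSC-A and 15 to 18 for GPSC-B at day 28, from 2 to 5 at day 2, 7 to 8 at day 7, 8 to 9 at day 14 and 15 to 17 at day 21. They ran from 1 to 1 for GPSC-A and 1 to 3 for GPSC-B against ES, 2 to 6 and 0 to 4 for the differences of change, 13 to 15 for PN1 against E16, 19 to 22 for E16 against day 0, 12 to 16 for day 28 against E16 and 17 to 21 for day 28 against PN1. Without background correction 11 members were called in GPSC-B at day 28, 0 at day 2, 3 at day 7, 4 at day 14, 9 at day 21, 0 in each comparison of lines, 9 for day 28 against E16 and 11 against PN1. The authors' value table gave 1 call at day 2, 4 at day 7, 4 at day 14, 9 at day 21, 0 in each comparison of lines and 11 for day 28 against PN1. Median scaling gave 2 at day 2, 1 and 0 for the differences of change, 0 and 2 between lines and 12 for day 28 against PN1. With no fold threshold there were 8 at day 2, and 13 and 8 between lines. With each comparison fitted on its own groups only, the differences of change gave 1 and 0. The cause of these shifts was not tested, apart from the fold threshold, which by construction adds calls.

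Directions reversed for day 28 against PN1 under median scaling, to 1.25 for Gsto1, 0.052 for Ugt1a6a, 0.15 for Ugt1a6b and 0.10 for Ugt1a7c. On another probe Gstt2 gave 0.11 for PN1 against E16, -1.26 for E16 against day 0, and 0.16 and 0.052 for day 28 against E16 and PN1. On another probe Ugt1a6a gave -0.077 in ES at day 28, 2.04 for the GPSC-A difference of change and 1.22 for day 28 against PN1. With the replicate number as a block, Gstm1 in GPSC-B at day 28 (1.15), Gstp3 (1.40) and Ugt1a6a (-1.84) in the differences of change were called as well, and no other call changed. Signal over background limits the low probes, whose folds shrink on the log2 scale.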
